A study of Mus musculus with 64 samples.

Results

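The 10 genes followed here mark mast cells, basophils and eosinophils: Cma1, Mcpt1, Cpa3, Hdc, Ms4a2, Fcer1a, Mcpt8, Prg2, Prg3 and Epx. They were chosen by symbol, and all 10 were found by Ensembl identifier among the 26286 genes of the table of normalised counts. RNA had been sequenced from 64 libraries of 18 mice, taken from whole bone marrow, whole spleen and 2 sorted populations of each tissue. MEP are megakaryocyte-erythroid progenitors. SMP are stem and myeloid progenitors, sorted by surface antigens as cells with Kit and CD34, little CD16/32, and neither Sca nor lineage antigens. Stem cells and myeloid progenitors are not parted in this gate, since BALB mice carry little Sca1. The affected mice were scat/scat, homozygous for the scat mutation of the Ras and Rap1 regulator Rasa3, on CbyJ.Cby-Rasa3(scat)/Llp. Mice whose red cell values, apart from reticulocytes and spleen weight, lay between crisis and WT had been classed as in partial remission, which gave 17 libraries of 5 scat mice aged 32 to 58 days, and anemic crisis gave 18 libraries of 3 scat mice aged 23 to 28 days. The wild-type (WT) mice were 7 young animals of 23 to 28 days (18 libraries) and 3 older animals of 32 to 58 days (10 libraries). A further whole spleen library of a 58-day mouse is labelled scat in partial remission, while the other 4 libraries of that mouse are labelled WT. It entered no comparison, and the other 4 were kept as older WT. The whole spleen library of the 58-day remission mouse stood apart from the other 2 remission spleens, with B cell and T and NK cell markers above those of the young WT spleens. Whether samples of these 2 mice were exchanged was not tested.

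Mast cells, basophils and eosinophils are granule-bearing cells of allergic and antiparasite responses that arise from myeloid progenitors in the bone marrow. Eosinophils and basophils finish their maturation there and leave through the blood as short-lived cells. Mast cells travel as committed progenitors and fill their granules only after they settle in a tissue, the spleen among them. Mast cells and basophils bind IgE through the high-affinity receptor Fc epsilon RI and release histamine and proteases when it is crosslinked.

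Among the members, Cma1 and Mcpt1 encode chymases, serine proteases of mast cell granules, and Mcpt1 is the mucosal type. Cpa3 encodes the mast cell carboxypeptidase, whose RNA appears early, in mast cell and basophil progenitors. Hdc encodes histidine decarboxylase, which makes histamine. Ms4a2 and Fcer1a encode the beta and alpha chains of Fc epsilon RI. Mcpt8 belongs by sequence to the mast cell protease family but its protein is a basophil granule protease in the mouse. Prg2 encodes eosinophil major basic protein, Prg3 its homologue, and Epx eosinophil peroxidase. Cma1 (chr14:55941451-55944675, minus strand), Mcpt1 (chr14:56017971-56020384, plus strand) and Mcpt8 (chr14:56082166-56085273, minus strand) lie within 143.8 kb on GRCm38, in a cluster of 7 protein-coding genes among 12 annotated ones (GENCODE M21). Prg2 and Prg3 lie 4.58 kb apart on chromosome 2. Of the 50-base words of the transcripts, 5.4% in Cma1 are shared with the pseudogene Gm48934 and 2.7% in Ms4a2 with Ms4a4b, and 0% in the other 8 genes, so the neighbouring proteases share no such word with Cma1, Mcpt1 or Mcpt8.

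Promoters of 5 members are shown. Of the neighbours Cma1, Mcpt1 and Mcpt8, Cma1 and Mcpt1 were higher in young WT whole spleen and Mcpt8 was higher in whole marrow. Cpa3 and Ms4a2 stood high in SMP. Each run holds 250 bases before and 50 bases after the annotated start (RefSeq, GRCm38.p6), read 5′ to 3′ on the gene's strand. Capitals mark every match, on either strand, to the GATA word AGATAA, the RUNX word TGTGGT or the C/EBP word TTGCNNAA, and no matches overlapped. The windows are chr14:55944626-55944925 for Cma1 (minus strand), chr14:56017714-56018013 for Mcpt1 (plus), chr14:56085148-56085447 for Mcpt8 (minus), chr3:20242132-20242431 for Cpa3 (minus) and chr19:11623670-11623969 for Ms4a2 (minus).
Cma1: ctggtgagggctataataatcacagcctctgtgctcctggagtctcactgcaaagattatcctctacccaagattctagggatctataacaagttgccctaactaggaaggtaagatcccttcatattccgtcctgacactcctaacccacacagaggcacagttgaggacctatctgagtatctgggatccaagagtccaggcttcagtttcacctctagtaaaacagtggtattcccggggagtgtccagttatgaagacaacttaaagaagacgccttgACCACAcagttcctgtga
Mcpt1: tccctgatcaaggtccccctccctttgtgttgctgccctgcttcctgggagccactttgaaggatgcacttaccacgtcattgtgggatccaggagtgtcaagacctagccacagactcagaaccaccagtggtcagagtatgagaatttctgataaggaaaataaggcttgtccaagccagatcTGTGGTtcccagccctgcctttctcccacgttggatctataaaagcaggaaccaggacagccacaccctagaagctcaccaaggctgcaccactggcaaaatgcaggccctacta
Mcpt8: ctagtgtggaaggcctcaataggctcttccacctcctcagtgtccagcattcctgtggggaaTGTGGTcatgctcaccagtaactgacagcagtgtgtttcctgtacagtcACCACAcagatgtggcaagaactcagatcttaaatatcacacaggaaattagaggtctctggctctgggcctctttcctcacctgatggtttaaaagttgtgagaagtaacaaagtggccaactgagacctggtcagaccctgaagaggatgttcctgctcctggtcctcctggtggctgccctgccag
Cpa3: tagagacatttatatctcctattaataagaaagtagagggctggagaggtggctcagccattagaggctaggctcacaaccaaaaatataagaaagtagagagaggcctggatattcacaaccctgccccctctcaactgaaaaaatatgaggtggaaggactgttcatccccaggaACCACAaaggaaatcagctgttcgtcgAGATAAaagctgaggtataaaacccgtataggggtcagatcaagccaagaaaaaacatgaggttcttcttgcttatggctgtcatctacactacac
Ms4a2: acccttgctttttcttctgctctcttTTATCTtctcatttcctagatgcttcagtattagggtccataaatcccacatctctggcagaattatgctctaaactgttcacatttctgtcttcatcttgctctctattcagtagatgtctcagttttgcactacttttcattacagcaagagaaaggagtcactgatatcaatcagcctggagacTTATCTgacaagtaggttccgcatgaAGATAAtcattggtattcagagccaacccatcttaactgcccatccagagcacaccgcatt

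In this window Cma1 and Mcpt1 each held 1 RUNX word, Mcpt8 held 2, and none of these 3 held the GATA or C/EBP word. Cpa3 held 1 GATA and 1 RUNX word, with the GATA word starting at position -46 from the start. Ms4a2 held 3 GATA words, starting at positions -224, -37 and -11. Of the other members in the promoter table, Fcer1a held 1 of each word, Prg3 held 1 RUNX word, and Epx and Hdc held none; Prg2 is not in it. Among 32851 promoter windows of this length, 11.2% held the GATA word, 16.8% the RUNX word and 10.8% the C/EBP word. A match describes letters and was not tested as a binding site.

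Levels below are the authors' normalised counts, put on 1 common scale over all libraries. Library totals, in units of 1e6 normalised counts, ranged from 33.6 to 107.62, with a median of 50.6. In bulk RNA, fewer cells of a type and less RNA per cell cannot be told apart. A member was tested in a comparison only if it averaged at least 10 normalised counts over the libraries compared, and the test was limma on log2(count + 1), adjusted over all genes tested, with a threshold of 0.05. Replicates are separate mice: each of the 3 crisis mice gave a library to all 6 populations, and the young WT spleen SMP came from other mice than the remaining young WT libraries. The scat allele is a missense change that leaves the RNA, and Rasa3 had a log2 change of -0.08 in crisis whole marrow (adjusted p = 0.705) and fell by 2.19 in crisis whole spleen (adjusted p = 4.27e-05, limma), so its level does not check the genotype labels.

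In young WT mice the 10 genes differed widely between the populations. Eosinophil and basophil genes were far higher in whole marrow, the chymase genes were higher in whole spleen, and SMP held Cpa3, Hdc, Ms4a2 and Mcpt8 with almost no chymase RNA. Per kilobase of exon, Prg2 led in whole marrow with 101231 ± 17829 normalised counts (SD, n = 3), followed by Epx with 8783 ± 2799, Prg3 with 4116 ± 994 and Mcpt8 with 2051 ± 219. Next per kilobase came Hdc with 853 ± 79.4 and Cpa3 with 708 ± 152, then Ms4a2 with 81.5 ± 21.0 and Fcer1a with 75.7 ± 25.8. The Hdc count was divided by 6389 bases of exon, while its longest coding transcript has 2392, on which its level would be higher. The rank of Hdc therefore depends on the length used. Cma1 stood at 25.2 ± 7.44 and Mcpt1 at 0.411 ± 0.712 per kilobase in the same marrow libraries. The spreads of Hdc and Cpa3 met, as did those of Ms4a2 and Fcer1a.

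In whole spleen of young WT mice Prg2 again led, with 5312 ± 3143 normalised counts per kilobase (SD, n = 3). Behind it stood Epx at 406 ± 352, Cpa3 at 351 ± 27.0, Cma1 at 245 ± 19.0, Mcpt1 at 222 ± 54.1, Prg3 at 218 ± 70.2 and Mcpt8 at 159 ± 60.6 per kilobase. Each of these overlapped the next in order within its spread, except that Cpa3 stood clear of Cma1. Hdc followed at 92.6 ± 8.83, with Fcer1a at 12.2 ± 4.51 and Ms4a2 at 9.90 ± 2.36 per kilobase. The place of Hdc again depends on the exon length used.

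Between whole spleen and whole marrow of young WT mice all 10 members passed the test, where 27.7% of all genes did, with 2 higher and 8 lower in spleen. Mcpt1 had 246.9, 163.1 and 266.4 normalised counts in spleen, against 0, 1.251 and 0 in marrow, a log2 difference of 7.46 (SE 0.622, adjusted p = 1.94e-05, limma). Cma1 had 245.5, 268.4 and 286.8 normalised counts in spleen, against 33, 31.12 and 18.11 in marrow (log2 difference 3.27, SE 0.333, adjusted p = 7.14e-05, limma). Both chymase RNAs were higher in spleen, and no library of one tissue reached the range of the other.

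The 8 members lower in spleen had log2 differences from -1.03 for Cpa3 to -4.81 for Epx. Prg2 had 7110, 4401 and 1843 normalised counts in young WT whole spleen, against 100684, 71010 and 82802 in young WT whole marrow. Mcpt8 had 148.7, 103.9 and 223.6 in spleen, against 2220, 1802 and 2118 in marrow (log2 difference -3.76, adjusted p = 8.54e-06, limma). The 3 neighbouring proteases therefore lay on opposite sides of this comparison, Cma1 and Mcpt1 high in spleen and Mcpt8 high in marrow. With the deposited values left unscaled, Cpa3, Epx and Fcer1a no longer passed (adjusted p = 0.231, 0.274 and 0.111, limma).

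Sorted SMP held Cpa3, Hdc, Ms4a2 and Mcpt8 and almost none of the chymases. In marrow SMP of young WT mice, Cpa3 had 2060, 1869 and 1595 normalised counts, Ms4a2 335.4, 205.9 and 253.3, Hdc 1597, 1034 and 974.6, and Mcpt8 227.6, 104.2 and 132.8. The eosinophil gene Prg2 stood near Mcpt8, with 139.9, 158.8 and 131.7, and Epx had 48.81, 34.64 and 46.45. Cma1 was listed at 0 in all 3 of these libraries, as were the chymase Mcpt4 and the tryptase Tpsb2, and Mcpt1 was above 0 in 1 of the 3, at 12.22. Against this profile, marrow MEP had 150.9, 58.38 and 161.4 normalised counts of Cpa3 and 6.239, 1.423 and 3.868 of Mcpt8.

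Of the 6 members tested between marrow MEP and marrow SMP, 4 were lower in MEP, where 74.1% of all genes passed. Their log2 differences were -4.97 for Mcpt8, -4.92 for Ms4a2, -3.91 for Cpa3 and -3.38 for Hdc (adjusted p from 3.12e-05 to 0.000259, limma). Mcpt8, Ms4a2, Cpa3 and Hdc were also lower in spleen MEP than in spleen SMP, by log2 differences of -3.18, -2.88, -4.57 and -5.07, in a comparison where 66.2% of all genes passed. Prg2 and Epx did not pass in either tissue; in marrow Prg2 had 85.04, 202.4 and 174.9 normalised counts in MEP, against 139.9, 158.8 and 131.7 in SMP. In both MEP populations, Mcpt1, Mcpt8, Prg3, Fcer1a and Cma1 averaged under 10 normalised counts over all libraries.

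Spleen SMP differed from marrow SMP in 3 of 6 members tested, Mcpt8, Prg2 and Epx, all lower in spleen, where 5.69% of all genes passed. Mcpt8 had 43.3, 24.16 and 36.94 normalised counts in young WT spleen SMP, against 227.6, 104.2 and 132.8 in young WT marrow SMP (log2 difference -2.07, SE 0.379, adjusted p = 0.0239, limma). Fcer1a was listed at 0 in all 3 spleen SMP libraries and stood at 9.763, 7.265 and 3.307 in the 3 marrow ones. Leaving out 1 library at a time gave 0 to 4 members in this comparison: 0 without marrow mouse 1 or 3 or without spleen mouse 2, and 1 without marrow mouse 2. Over all genes those fits called from 32 to 1471. Between the tissues' MEP, 0 of 5 members passed (limma), where 0.00713% of all genes did. At an unadjusted p under 0.05 (limma) stood 0 members, beside 2888 of 14027 genes tested.

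**Figure D1:**
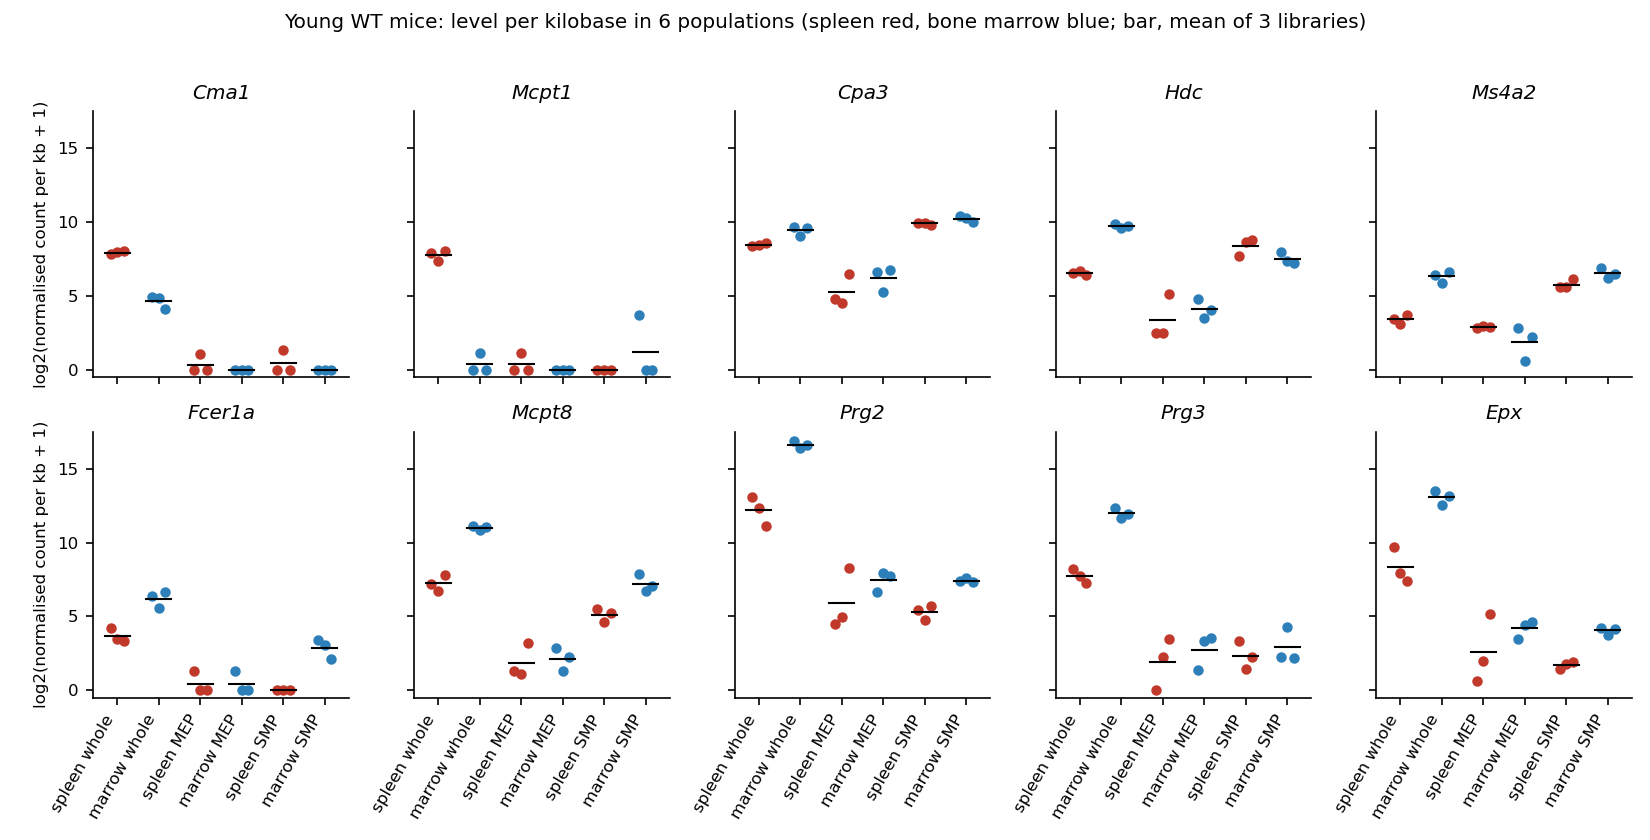
Level of each of the 10 genes in young WT mice as log2(normalised count per kilobase + 1) on the vertical axis, for 6 populations on the horizontal axis; each point is 1 library and each bar the mean of 3. Cma1 and Mcpt1 are high in whole spleen, Mcpt8, Prg2, Prg3 and Epx are highest in whole marrow, and Cpa3 is highest in SMP.

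In crisis, Mcpt1, Cma1, Cpa3 and Hdc fell in whole spleen, and the eosinophil members Prg2, Prg3 and Epx gave no call. Of 9 members tested 4 fell and 0 rose. Of all genes 46.3% passed in this comparison, 22.3% higher and 24% lower, so calls in either direction were common here. A count of 4 falls in 9 members, beside 24% of all genes, is too small to read further. The members' median log2 change was -0.94, beside -0.05 over all genes tested.

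Cma1 had 15.08, 7.457 and 27.83 normalised counts in crisis whole spleen, against 245.5, 268.4 and 286.8 in young WT whole spleen. The highest crisis mouse was far under the lowest WT mouse, and the log2 change was -4.08 (SE 0.497, adjusted p = 0.000282, limma), a fold of 0.0593. Mcpt1 had 17.97, 3.667 and 0 in crisis, against 246.9, 163.1 and 266.4 in young WT (log2 change -5.64, SE 0.965, adjusted p = 0.00166, limma). One crisis spleen thus listed no Mcpt1 at all. Cpa3 had 95.11, 139.7 and 141.8 in crisis, against 493.8, 526.6 and 575.4 in young WT (log2 change -2.09, SE 0.262, adjusted p = 0.000331, limma).

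Hdc fell less, with 339.4, 256.1 and 325.5 normalised counts in crisis spleens, against 594.9, 646 and 533.3 in young WT spleens (log2 change -0.94, SE 0.218, adjusted p = 0.007, limma). Its call was lost with the deposited values left unscaled or with all 4 states in 1 fit. Ms4a2 had 11.37, 3.857 and 9.571 in crisis, against 27.43, 21.45 and 34.69 in young WT, which did not overlap but missed the threshold (log2 change -1.72, SE 0.704, adjusted p = 0.0732, limma). Fcer1a averaged under 10 in these 6 libraries and was not tested: it had 0, 3.6 and 12.49 in crisis, against 17.33, 9.889 and 9.221 in young WT.

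Ratios to the Cpa3 count differed as well. Cma1 was 5.34 to 19.6% of the Cpa3 count in crisis spleens (median 15.9%), against 49.7 to 51.0% in young WT spleens (median 49.9%). Hdc was 183 to 357% of the Cpa3 count in crisis, against 92.7 to 123% in young WT. Neither pair of ranges overlapped, so the granule protease stood lower against Cpa3 in crisis than in young WT spleens, and Hdc stood higher. In the 1 older WT spleen Cma1 was 33.3% and Hdc 182% of the Cpa3 count, the latter near the lowest crisis value. Remission spleens ran from 20.9 to 48.3% for Cma1 and from 73.3 to 608% for Hdc.

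The basophil and eosinophil members gave no call in whole spleen. Mcpt8 had 110, 99.34 and 64.32 normalised counts in crisis, against 148.7, 103.9 and 223.6 in young WT (log2 change -0.75, adjusted p = 0.146, limma). Prg2 had 3289, 1738 and 7435 in crisis, against 7110, 4401 and 1843 in young WT (log2 change -0.14, SE 0.629, adjusted p = 0.875, limma). Epx had 708.1, 397.5 and 1583 in crisis, against 2219, 658.4 and 458 in young WT (log2 change -0.19, SE 0.652). These eosinophil transcripts varied several-fold between mice of the same state, so a difference of that size could not be seen, and Prg3 also missed the threshold (log2 change -0.82, adjusted p = 0.126, limma).

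**Figure D2:**
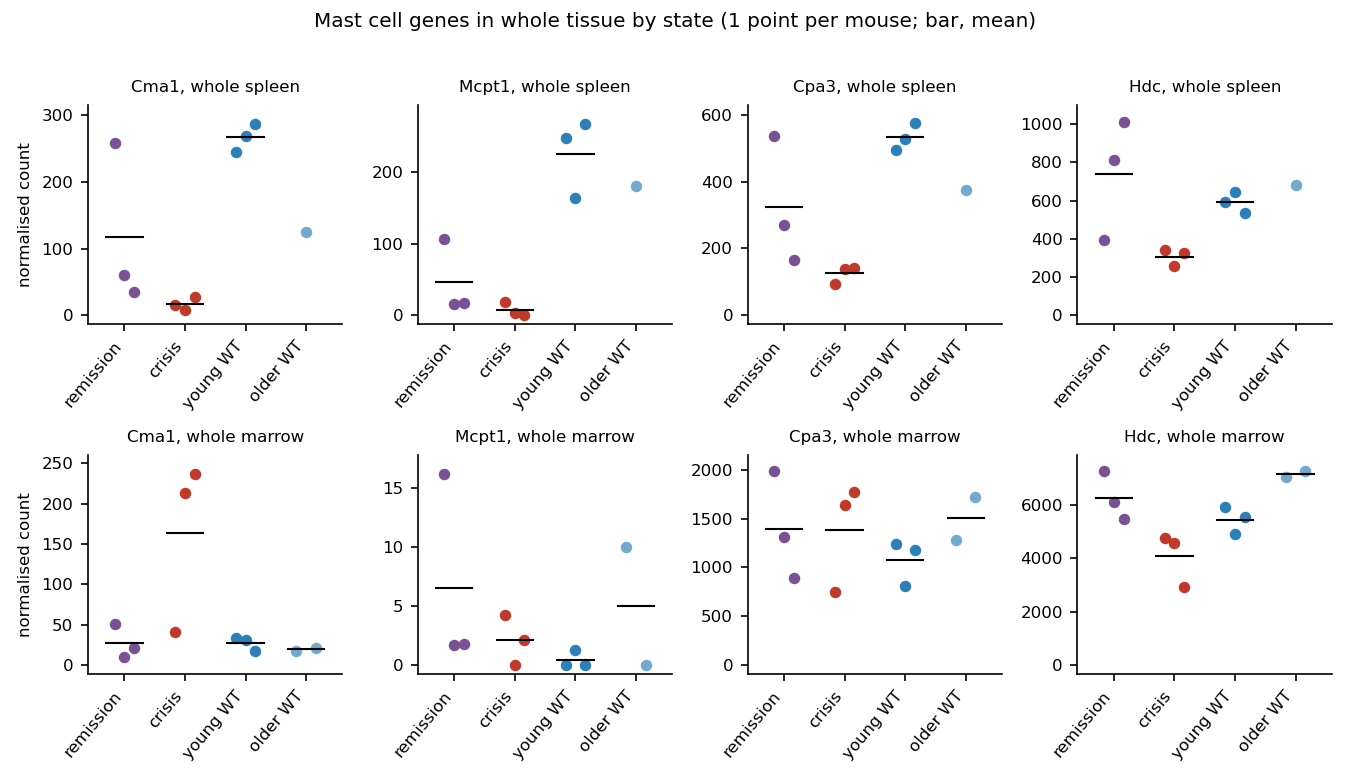
Normalised counts (vertical axis, linear) of Cma1, Mcpt1, Cpa3 and Hdc in whole spleen (top) and whole marrow (bottom) by state; each point is 1 mouse and each bar the mean where a state has more than 1 mouse. In spleen the crisis mice lie under all young WT mice for all 4 genes, while in marrow the Cma1 counts of the crisis mice, from 40.42 to 236.7, lie above those of the young WT mice.

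Of the mast cell list (20 genes, 17 tested), 6 fell, 2 rose and 9 gave no call in crisis spleen, with a median log2 change of -0.80, where 24% of all genes were lower and 22.3% higher. Mcpt4, the chymase of connective tissue mast cells, had 26.68, 60.09 and 59.63 normalised counts in crisis, against 613.7, 711.2 and 992.8 in young WT (log2 change -4.01, SE 0.379, adjusted p = 7.57e-05, limma). The tryptases Tpsb2 and Tpsab1 fell by 3.06 and 2.17 on the log2 scale (adjusted p = 0.00119 and 0.0348, limma). Gzmb, a granzyme that cytotoxic lymphocytes also make, fell by 3.43, and Srgn, the proteoglycan core of granules, fell by 1.16. The 2 that rose were Il1rl1, the interleukin-33 receptor (log2 change 1.36, adjusted p = 0.000187, limma), and Ndst2, a heparin-synthesis enzyme (0.59, adjusted p = 0.0362, limma).

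Of the basophil list (15 genes, 13 tested), 8 fell and 1 rose in crisis spleen, with a median of -2.0. Cd200r3, a receptor of basophils and mast cells, had 35.46, 24.76 and 21.68 normalised counts in crisis, against 103.5, 187.5 and 69.57 in young WT (log2 change -2.0, adjusted p = 0.00917, limma). Prss34, a basophil protease, had 187.9, 152.8 and 110.5 in crisis, against 164.6, 119.6 and 156.2 in young WT (log2 change 0.02, SE 0.325, adjusted p = 0.959, limma). The list's smallest adjusted p values were those of Itgb7, an integrin chain (log2 change -2.28), Csf1, a macrophage growth factor (-1.88), and Il18r1, an interleukin-18 receptor chain (-2.35), all genes of lymphocytes or stroma as well. The gene that rose was the cytokine Il6 (log2 change 3.28, adjusted p = 0.032, limma).

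Of the eosinophil list (12 genes, 11 tested), 3 fell and 0 rose in crisis spleen: Il5ra, an interleukin-5 receptor chain that B cells carry too (log2 change -3.32, adjusted p = 0.000424, limma), Cd300lb (-1.51) and the macrophage and eosinophil antigen Adgre1 (-1.09). The eosinophil ribonuclease Ear1 (log2 change -0.61) and the lectin Siglecf (-0.66) did not pass. Of the Fc epsilon receptor signalling list (15 genes, 15 tested), 13 fell and 1 rose, with a median of -2.03, led by Plcg2, Syk and Lat2, with log2 changes of -2.32, -2.20 and -2.82. Of mediator synthesis and release genes (15 genes, 14 tested), 4 fell, among them the granule-fusion regulator Stxbp2 (-0.63), and 2 rose, among them the fusion protein Snap23 (0.97). Of growth factor receptors and regulators (20 genes, 20 tested), 6 fell, led by Irf8 (-1.91), and 3 rose, Il1rl1, Gata1 (1.39) and its cofactor Zfpm1 (1.09).

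Lymphocyte markers moved in the same spleens. All 8 B cell markers fell (median log2 change -3.65), with summed levels of 5535 to 14052 normalised counts in crisis, against 95079 to 116032 in young WT. All 10 T and NK cell markers fell (median -3.21), with sums of 1572 to 3709 in crisis, against 21025 to 31060 in young WT, and 6 of 10 erythroid markers rose (median 0.92). None of these markers was at 0 throughout a group. The 10 neutrophil granule markers gave no call in either direction (median -0.13; limma). The part of these changes in the fall of the mast cell genes was not tested.

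In whole marrow Cma1 had 40.42, 213 and 236.7 normalised counts in crisis, against 33, 31.12 and 18.11 in young WT, with every crisis mouse above every WT mouse. Its log2 change of 2.19 missed the threshold (SE 0.663, adjusted p = 0.0778, limma). Of 9 members tested 0 passed in whole marrow, where 8.85% of all genes did, 4.66% higher and 4.19% lower. At an unadjusted p under 0.05 (limma) stood 5 of the 9, beside 4313 of 16254 genes tested. Leaving out crisis mouse 1, the youngest at 23 days and the one with 40.42, brought the adjusted p of Cma1 under the threshold. Genes called in whole marrow ranged from 94 to 3027 as single libraries were left out.

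The tryptases showed the same mice apart. Tpsb2 had 57.78, 190.6 and 257 normalised counts in crisis marrow, against 16.8, 32.39 and 37.58 in young WT marrow, and passed (log2 change 2.30, SE 0.586, adjusted p = 0.0488, limma), the only gene of the mast cell list to do so (14 of 20 tested, median 0.39). Tpsab1 had 16.59, 95.62 and 279.5 in crisis, against 5.041, 11.22 and 14.25 in young WT (log2 change 2.89, SE 0.944, adjusted p = 0.0951, limma). Mcpt4 had 23.84, 68.74 and 37.65 in crisis, against 4.645, 24.97 and 19.34 in young WT (log2 change 1.47, adjusted p = 0.227, limma). For Cma1 and both tryptases, crisis mice 2 and 3 were well above crisis mouse 1.

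Cpa3 gave no call in marrow, with 745.1, 1636 and 1775 normalised counts in crisis, against 1235, 809.9 and 1177 in young WT (log2 change 0.27, SE 0.326, adjusted p = 0.649, limma). Cma1 was 5.43 to 13.3% of the Cpa3 count in crisis marrow (median 13.0%), against 1.54 to 3.84% in young WT marrow (median 2.67%). These ranges did not overlap either, and the crisis median in marrow stood near the crisis median in spleen of 15.9%. Mcpt1 stayed at the bottom, with 4.236, 0 and 2.147 in crisis marrow and 0, 1.251 and 0 in young WT marrow, and was not tested.

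The eosinophil genes were lower in crisis marrow, though none passed. Prg3 had 2722, 1316 and 1313 normalised counts in crisis, against 4941, 3095 and 3681 in young WT (log2 change -1.22, SE 0.329, adjusted p = 0.0633, limma). Prg2 had 67791, 43817 and 63551 in crisis, against 100684, 71010 and 82802 in young WT (log2 change -0.58, SE 0.216, adjusted p = 0.133, limma). Epx had 13600, 8883 and 16021 in crisis, against 31245, 15993 and 24882 in young WT (log2 change -0.92, SE 0.308, adjusted p = 0.107, limma). Crisis mice lay under WT mice for Prg3 and Prg2, and for Epx the highest crisis and the lowest WT mouse were nearly level.

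As a share of all normalised counts, Prg2 made up 608 to 980 in every 1e6 in crisis marrow, against 1207 to 1879 in young WT marrow. Prg3 was 2.07 to 4.02% of the Prg2 count in crisis (median 3.00%), against 4.36 to 4.91% in young WT (median 4.45%). The homologue thus stood lower beside Prg2 in crisis than in young WT. Older WT marrow had 3.67 and 4.39%, which overlapped the crisis range. Prg3 passed when all 4 states shared 1 fit, when all WT libraries served as the control and when crisis mouse 1 was left out. Hdc had 4743, 4574 and 2936 in crisis marrow, against 5897, 4897 and 5546 in young WT (log2 change -0.47, SE 0.195, adjusted p = 0.169, limma). Counted over all genes, 32.7% had crisis and young WT marrow libraries that did not overlap, beside 5 of 9 members (Cma1, Prg2, Prg3, Epx and Hdc) on the scale of that fit. In the same marrow 4 of 10 erythroid markers rose (median 0.94), with sums of 8212920 to 11574908 normalised counts in crisis, against 3612286 to 7356792 in young WT. Their part in the Prg2 share was not tested.

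The basophil members differed little in crisis marrow. Mcpt8 had 1987, 1952 and 1018 normalised counts in crisis, against 2220, 1802 and 2118 in young WT (log2 change -0.39, SE 0.258). Ms4a2 (log2 change -0.13) and Fcer1a (-0.42) were within the spread of the mice. Of the basophil list 0 of 14 passed, of the eosinophil list 2 of 11 rose, the chemokine Ccl24 (2.46) and Adgre1 (0.55), and of the Fc epsilon receptor signalling list 4 of 15 fell, Syk (-1.22), Btk (-0.46), Plcg2 (-0.56) and Pik3cd (-0.55). The B cell markers had a median log2 change of -3.34 in marrow with 0 of 8 called (sums of 5293 to 54417 in crisis, against 96604 to 118498 in young WT). Of the monocyte and macrophage markers 5 of 9 rose (median 0.55; sums of 197454 to 274089 in crisis, against 195591 to 224113 in young WT). The part of either list in these results was not tested.

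**Figure D3:**
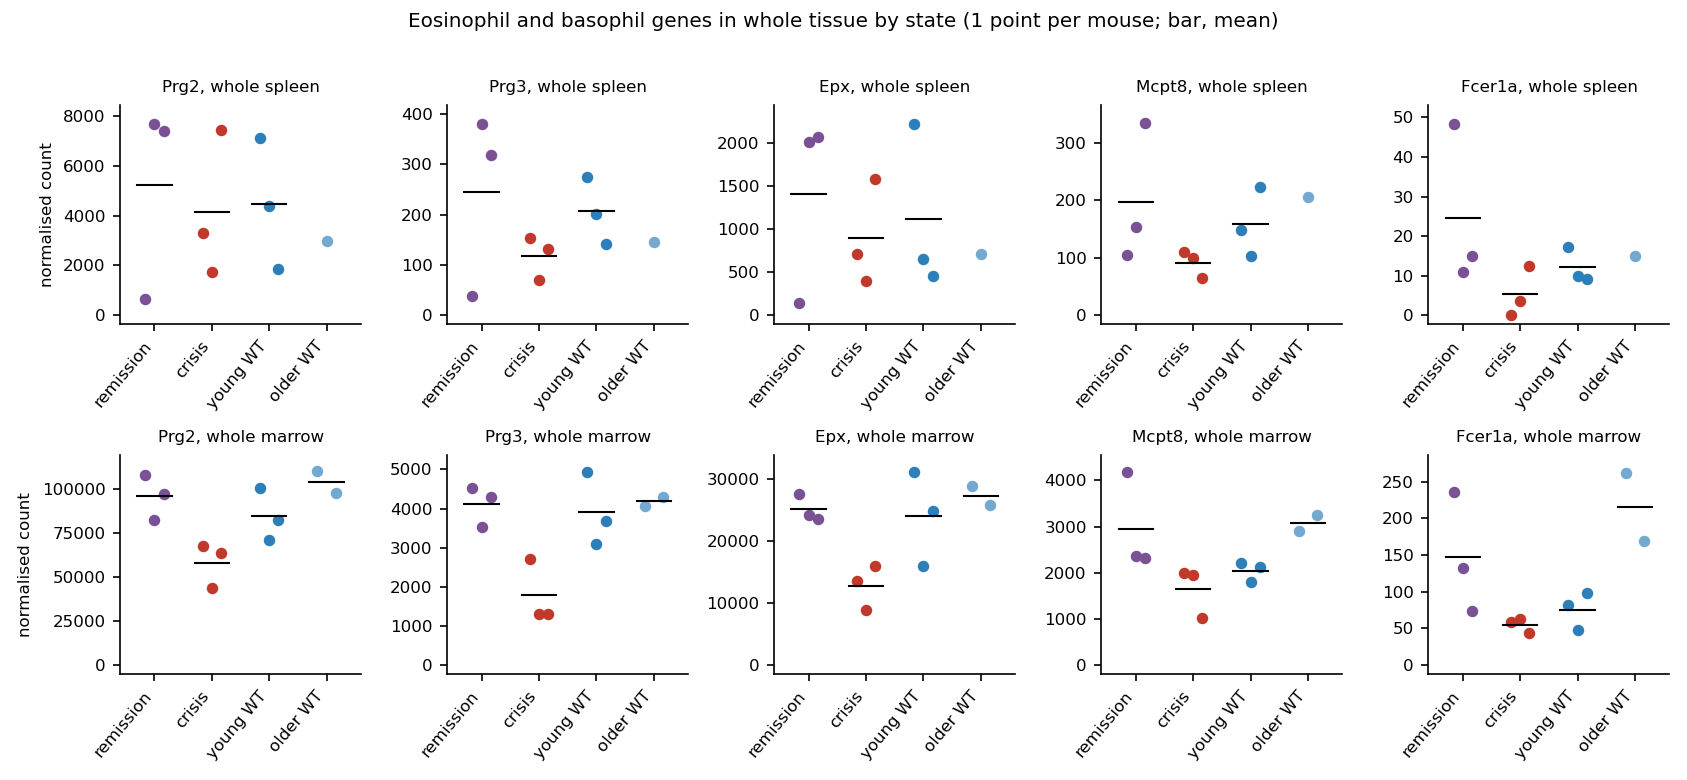
Normalised counts (vertical axis, linear) of Prg2, Prg3, Epx, Mcpt8 and Fcer1a in whole spleen (top) and whole marrow (bottom) by state; each point is 1 mouse and each bar the mean where a state has more than 1 mouse. In marrow the crisis mice lie under the remission mice for all 5 genes, and in spleen the states overlap for Prg2, Prg3 and Epx.

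The crisis effect itself differed between spleen and marrow for 4 of 10 members, all lower in spleen, where 26% of all genes differed, 9.85% higher and 16.2% lower. For Cma1 the spleen effect was lower than the marrow effect by 6.25 on the log2 scale (difference -6.25, SE 0.798, adjusted p = 0.000152, limma with the mouse as a random block). The differences were -6.58 for Mcpt1 (SE 1.31, adjusted p = 0.00311), -2.40 for Cpa3 (SE 0.357, adjusted p = 0.000456) and -1.63 for Ms4a2 (SE 0.514, adjusted p = 0.0341, limma). Mcpt1 was near 0 in marrow of both states (4.236, 0 and 2.147 normalised counts in crisis, 0, 1.251 and 0 in young WT). It had no level to lose there, so its difference restates its fall in spleen. The call of Ms4a2 is fragile, since it was lost in 14 of 17 alternatives, among them a fit with no mouse block (adjusted p up to 0.552 over them).

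With the deposited values left unscaled, Cma1 was the only member whose spleen and marrow effects still differed by the test. Among granule proteases outside the members the differences were -5.41 for Tpsb2, -5.54 for Mcpt4 and -5.13 for Tpsab1 (adjusted p = 0.000123, 0.000145 and 0.0041, limma). Of the whole mast cell list 6 of 15 tested were lower, and 0 higher, in the spleen effect than in the marrow effect (median -0.84, beside -0.01 over all genes). Of other lists, the counts of lower genes were 13 of 15 for Fc epsilon receptor signalling (median -1.64), 10 of 10 T and NK cell markers (-3.41), 8 of 9 monocyte and macrophage markers (-1.57) and 9 of 14 on the basophil list (-1.77). Of the eosinophil list 4 of 11 were lower (-0.55), and of the B cell markers 0 of 8 (-0.26). Lower spleen effects were thus not limited to mast cell genes, and the part of these lists in it was not tested. For Prg2, Prg3, Epx and Mcpt8 the differences were 0.29, 0.32, 0.59 and -0.35, each within 1 SE of 0 (SE 0.645, 0.428, 0.710 and 0.371). The neighbours Cma1 and Mcpt8, whose promoters are shown above, thus had differences of very unequal size.

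**Figure D4:**
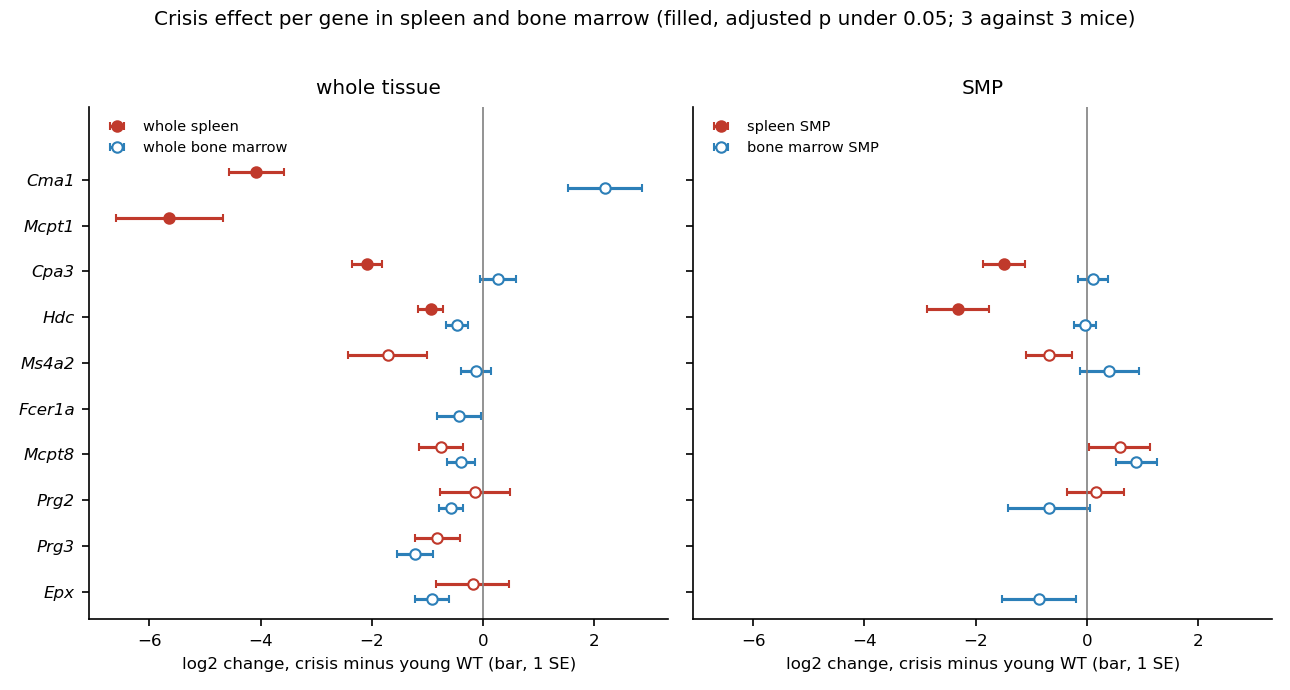
Log2 change in crisis against young WT (horizontal axis, points with bars of 1 SE) for each tested gene in whole tissue (left) and SMP (right), spleen in red above bone marrow in blue; filled points passed the adjusted threshold. Cma1 lies at -4.08 in whole spleen and at 2.19 in whole marrow, and Cpa3 and Hdc are the members filled in both whole spleen and spleen SMP.

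Spleen SMP repeated the fall of Cpa3 and Hdc in crisis. Of 5 members tested, 2 fell and 0 rose, where 23.6% of all genes passed, 12.3% higher and 11.3% lower. Cpa3 had 895.4, 256.9 and 493.4 normalised counts in crisis, against 1519, 1458 and 1385 in young WT (log2 change -1.49, SE 0.377, adjusted p = 0.03, limma). Hdc had 910, 154.7 and 448.4 in crisis, against 1334, 2542 and 2820 in young WT (log2 change -2.31, SE 0.553, adjusted p = 0.0284, limma). No crisis library reached a WT library for either gene, as in 50.1% of all genes, and crisis mouse 2 was the lowest in both.

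Both calls in spleen SMP were lost on leaving out any 1 of the 3 WT mice or crisis mouse 3, with adjusted p up to 0.0972 for Cpa3 and 0.0958 for Hdc. Ms4a2 had 139.3, 62.58 and 78.53 normalised counts in crisis, against 132.4, 132 and 199.1 in young WT (log2 change -0.68, adjusted p = 0.239, limma). Mcpt8 had 72.44, 24.82 and 60.95 in crisis, against 43.3, 24.16 and 36.94 in young WT (log2 change 0.59, adjusted p = 0.435, limma). These 2 genes overlapped between the states.

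Among related genes in spleen SMP, the monoamine transporter Slc18a2, which loads histamine into granules, fell (1935, 491.5 and 1469 normalised counts in crisis, against 3499, 3821 and 5011 in young WT; log2 change -1.76, adjusted p = 0.0284, limma). Gata2, a regulator of mast cell and basophil progenitors, fell as well (log2 change -1.29, adjusted p = 0.0284, limma), and Gata1 rose (1.30, adjusted p = 0.0277, limma). All 8 stem and early progenitor markers fell (median log2 change -1.63), with sums of 11350 to 36782 normalised counts in crisis, against 54591 to 79730 in young WT, and 5 of 10 erythroid markers rose (median 1.58). None of these markers was at 0 throughout a group, and their part in the fall of Cpa3 and Hdc was not tested.

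Marrow SMP gave no such fall. Cpa3 had 1251, 2746 and 2121 normalised counts in crisis, against 2060, 1869 and 1595 in young WT (log2 change 0.12, SE 0.273, adjusted p = 0.828, limma). Hdc had 1004, 1223 and 1144 in crisis, against 1597, 1034 and 974.6 in young WT (log2 change -0.03, SE 0.194). Mcpt8 had 190.1, 409.3 and 241.3 in crisis, against 227.6, 104.2 and 132.8 in young WT (log2 change 0.89, SE 0.369, adjusted p = 0.197, limma). Crisis and WT mice overlapped for all 3 and for the other members tested, where 30.1% of all genes did not overlap.

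Of 6 members tested in marrow SMP, 0 passed (limma), where 2.36% of all genes did, 1.26% higher and 1.09% lower. At an unadjusted p under 0.05 (limma) stood 1, beside 3578 of 15271 genes tested. Leaving out crisis mouse 1 gave 3 that passed the adjusted threshold (Prg2, Epx and Ms4a2). Genes called ranged from 5 to 2957 as single libraries were left out, so such gains were not particular to members. Cma1, listed at 0 in all 3 young WT libraries, had 0, 14.46 and 8.991 in crisis marrow SMP and was under the level needed for a test. The 2 crisis mice above 0 are again mice 2 and 3. Spleen SMP did not repeat this order. Cma1 there had 10.79, 1.443 and 10.77 normalised counts in crisis, against 0, 1.629 and 0 in young WT. Mcpt1 there had 8.249, 0 and 0 in crisis. Both averaged too low in spleen SMP for a test. The difference of the crisis effect between spleen SMP and marrow SMP was -1.61 for Cpa3 and -2.29 for Hdc (adjusted p = 0.114 and 0.105, limma), where 0% of all genes passed. Leaving out spleen crisis mouse 1 brought both under the threshold, in a comparison where genes called ranged from 0 to 3258 as single libraries were left out.

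Related genes called in marrow SMP were few. Ccl6, a chemokine of myeloid cells and eosinophils, had 465.1, 247 and 245.2 normalised counts in crisis, against 102.9, 93.93 and 85.21 in young WT (log2 change 1.72, SE 0.273, adjusted p = 0.0243, limma). Gata1 (0.92) and Csf2rb2, an interleukin-3 receptor chain (0.56), rose and the prostaglandin synthase Ptgs1 fell (-0.76). Of the mast cell, basophil and Fc epsilon lists, 0 of 11, 0 of 14 and 0 of 15 passed (limma). The nearest to a call were Il18r1 (log2 change 0.96, adjusted p = 0.051), the adaptor Gab2 (0.87, adjusted p = 0.0647) and Id2, a repressor of E proteins (2.33, adjusted p = 0.052, limma). Of the 10 erythroid markers, 8 rose (median 1.33), with sums of 99938 to 131953 in crisis, against 40295 to 58379 in young WT; 3 of 8 stem and early progenitor markers fell (median -0.68). Whether either bears on the members was not tested.

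**Figure D5:**
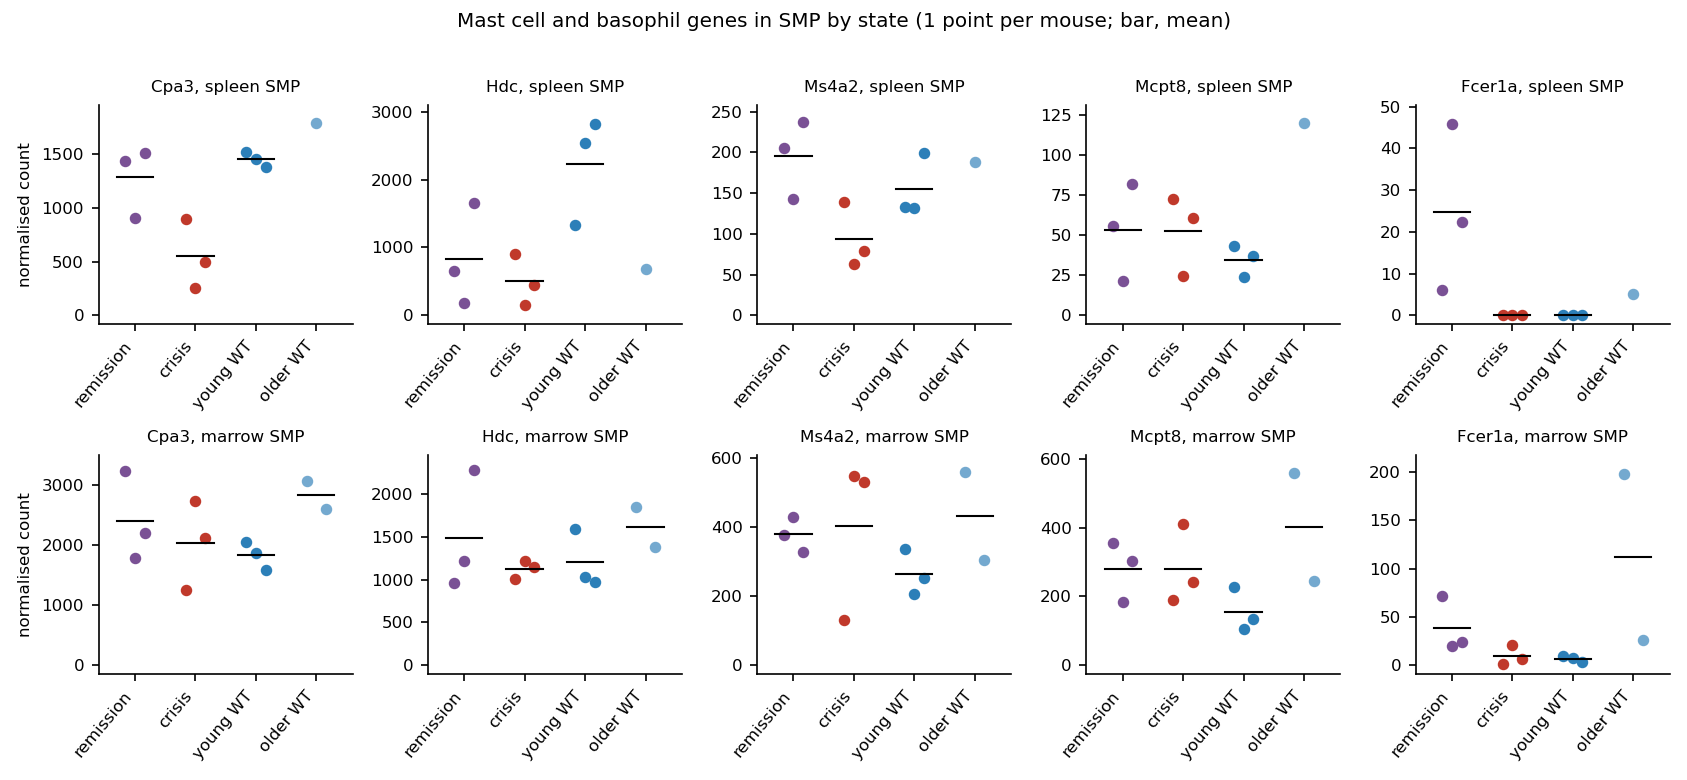
Normalised counts (vertical axis, linear) of Cpa3, Hdc, Ms4a2, Mcpt8 and Fcer1a in spleen SMP (top) and marrow SMP (bottom) by state; each point is 1 mouse and each bar the mean where a state has more than 1 mouse. The crisis mice lie under the young WT mice for Cpa3 and Hdc in spleen SMP, and Fcer1a is at 0 there in all crisis and young WT mice.

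In MEP the members were scarce and 0 of 5 passed in either tissue (limma). Of all genes 0.197% passed in marrow (0.183% higher, 0.014% lower) and 1.17% in spleen (0.576% higher, 0.598% lower). An unadjusted p under 0.05 (limma) was found for 4 members in marrow, beside 2045 of 14239 genes tested. In spleen it was found for 2 members, beside 3032 of 13542 genes. In spleen MEP, Cpa3 had 6.34, 21.99 and 4.326 normalised counts in crisis, against 39.81, 32.96 and 132.6 in young WT (log2 change -2.54, SE 0.755, adjusted p = 0.114, limma), and passed with the deposited values left unscaled. Hdc there had 11.25, 5.4 and 21.24 in crisis, against 29.58, 29.42 and 218.6 in young WT (log2 change -2.27, SE 0.859). Neither gene overlapped between the states, as in 28.5% of all genes, while in marrow MEP all 5 members overlapped and 19.4% of all genes did not. In marrow MEP, Epx had 41.81, 4.494 and 2.945 in crisis, against 28.1, 57.06 and 64.74 in young WT (log2 change -2.27, SE 0.92, adjusted p = 0.333, limma), and Epx and Prg2 passed when crisis mouse 1 was left out. Genes called in marrow MEP ranged from 6 to 1693 as single libraries were left out.

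Remission was set against crisis, from which it differs in age as well as in state. No member passed in any population (limma), and among all genes 0% passed in every population but spleen MEP, where 0.0226% did (0.00754% higher, 0.0151% lower). At an unadjusted p under 0.05 (limma) stood 7 of 9 members in whole marrow, beside 2013 of 16114 genes tested. In whole spleen 3 of 10 did, beside 1929 of 15979, and in spleen SMP 3 of 6, beside 2173 of 14954. For marrow SMP it was 1 of 8, beside 2426 of 15253. In spleen MEP it was 1 of 4, beside 762 of 13255, and in marrow MEP 0 of 5, beside 1128 of 14300. The values below are therefore descriptions of mice. In marrow SMP 0 of 8 members had groups that did not overlap, beside 22.2% of all genes, in spleen MEP 1 of 4 (Hdc), beside 21.5%, and in marrow MEP 0 of 5, beside 12.4%.

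In whole marrow, 6 of 9 members tested had every remission mouse above every crisis mouse, where 17.7% of all genes had groups that did not overlap. Prg3 had 4519, 3534 and 4294 normalised counts in remission, against 2722, 1316 and 1313 in crisis (log2 change 1.29, SE 0.293, adjusted p = 0.274, limma). Epx had 27597, 24233 and 23613 in remission, against 13600, 8883 and 16021 in crisis (log2 change 1.01, SE 0.228). Fcer1a had 235.2, 132.5 and 74.02 in remission, against 59.3, 62.86 and 43.82 in crisis. Prg2, Mcpt8 and Hdc were the other members of this kind.

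Cma1 had 51.54, 9.929 and 21.14 normalised counts in remission marrow, against 40.42, 213 and 236.7 in crisis marrow (log2 change -2.45, SE 0.795, adjusted p = 0.313, limma). Prg3 and Cma1 passed when crisis mouse 1 was left out, in a comparison where genes called ranged from 0 to 703 as single libraries were left out. Older WT marrow had 17.89 and 21.02 of Cma1 and 4060 and 4309 of Prg3. Tpsb2 had 15.67, 11.57 and 1.763 in remission marrow, against 57.78, 190.6 and 257 in crisis marrow.

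In whole spleen the 3 remission mice did not form 1 group for Cma1 and Mcpt1. Cma1 had 259.3, 60.12 and 34.72 normalised counts in remission, against 15.08, 7.457 and 27.83 in crisis, and Mcpt1 had 107.1, 16.29 and 17.52 in remission, against 17.97, 3.667 and 0 in crisis. The high value of each belongs to the remission mouse of 58 days, whose Cma1 lies within the range of young WT spleens (245.5 to 286.8), and the 33-day and 32-day mice lie nearer crisis. The same 58-day mouse had the least eosinophil RNA of the 3, with 637.3 of Prg2 against 7680 and 7382 in the others, and its Syk, at 36856, exceeded the 10389 and 12123 of the others. It also held the highest of the B cell sums (154708, beside 25318 and 35640 in the other remission spleens and 95079 to 116032 in young WT) and of the T and NK cell sums (45339, beside 6468 and 8118 in the others and 21025 to 31060 in young WT). Older WT spleen had 124.6 of Cma1 and 180.2 of Mcpt1 in its 1 library.

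Cpa3, Ms4a2, Hdc and Cma1, 4 of 10 members, had every remission spleen above every crisis spleen, where 26.6% of all genes had groups that did not overlap. Hdc had 393.4, 813.9 and 1010 normalised counts in remission, against 339.4, 256.1 and 325.5 in crisis (log2 change 1.13, SE 0.422, adjusted p = 0.401, limma). Ms4a2 had 67.87, 23.89 and 49.51 in remission, against 11.37, 3.857 and 9.571 in crisis (log2 change 2.33, SE 0.719, adjusted p = 0.401, limma). Without the 58-day mouse the count of members called in whole spleen was again 0, and the log2 change was 1.54 for Cma1 (2.35 with it), 2.01 for Mcpt1 (2.86 with it) and 1.60 for Prg3 (0.54 with it).

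In spleen SMP, Fcer1a was listed at 0 in all 3 crisis and all 3 young WT libraries and stood at 5.969, 45.72 and 22.39 in the 3 remission libraries and at 5.215 in the older WT library. The libraries above 0 are those of the older mice, so state and age cannot be told apart here. Marrow SMP had 71.09, 20.2 and 24.4 of Fcer1a in remission, 1.078, 20.62 and 5.981 in crisis, and 197.6 and 25.54 in older WT. Cpa3 in spleen SMP had 1435, 905.3 and 1515 in remission, against 895.4, 256.9 and 493.4 in crisis (log2 change 1.32, SE 0.434, adjusted p = 0.343, limma).

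Across all 64 libraries, 15943 genes averaging at least 10 normalised counts were ranked by Pearson correlation of log2(count + 1) with a mast cell, a basophil and an eosinophil member, as a description in which the libraries share mice and tissues. Nearest to Cma1 were the mast cell tryptase Tpsb2 (r = 0.899), the lipoprotein lipase Lpl (0.898), the T cell coreceptor chain Cd8b1 (0.885), Tpsab1 (0.883) and Cd300ld3 (0.876). Nearest to Epx were the eosinophil ribonucleases Ear6 (0.988) and Ear1 (0.986), the lipoxygenase Alox15 (0.977), and the neutrophil genes S100a9 (0.974) and Lcn2 (0.972). Nearest to Mcpt8 were Pi16 (0.962), Cd9 (0.958), Sun2, Slc8b1 and Grn (0.956 each). Among the members the highest values joined Prg2, Prg3 and Epx (0.971 to 0.991), then Hdc and Mcpt8 (0.902), while Cma1 reached at most 0.701, with Prg2. That value did not hold within a tissue. Over the 11 whole spleen libraries, Cma1 stood at 0.958 with Cpa3, 0.838 with Mcpt1 and -0.130 with Prg2. Over the 11 whole marrow libraries the same pairs stood at 0.389, -0.042 and -0.687.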

How the data were processed

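RNA libraries were made with an mRNA kit from total RNA, per the labels' protocols. Bowtie2 2.2.0, RSEM and DESeq2 were applied by the authors on GRCm38, per the submitters' processing notes; their order is not given in the sources used here. The authors deposited a table of normalised counts, a signal per gene and library that is not whole reads, and a table of regularised log2 values for 25287 genes. Depth in reads is unknown. The members and the related lists were chosen with earlier results of these data known.

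GENCODE M21 matched 25607 identifiers to symbols. Printed levels are deposited values divided by each library's median ratio over 12829 genes above 0 in all libraries (log2 factors -0.543 to 0.672). Each fit computed such factors over its own libraries, so a pair of nearly equal libraries can change order between the printed and the fitted scale. limma 3.58.1 (R 4.3.3) fitted log2(count + 1) with a trend and robust empirical Bayes, two-sided, with Benjamini-Hochberg adjustment over all genes with a mean of at least 10, in 20 comparisons. Fits held only the groups compared. An exact test of 3 against 3 cannot give a p under 0.1. The mouse was a random block where populations shared mice. Replicates carry no shared number across states, so no states were paired. Named genes are the 10 members, the 3 of smallest adjusted p per related list in whole spleen and marrow SMP, those needed to read a count of 5 or fewer, and the 5 most like 3 members; Tpsab1, Mcpt4 in marrow, Cd200r3, Prss34, Ear1, Siglecf, Slc18a2 and Gata2 were added after their values were seen. The fit was tested on data simulated after the whole spleen comparison of crisis and young WT, with 200 of 16127 genes changed. It recovered 27% of log2 changes of 1 and 57% of log2 changes of 2, with 0 unchanged genes called. The real comparison called 7464 of 16127 genes. The adjusted threshold depends on the share of genes changed, so these rates do not describe that comparison. A missing call does not show a missing change. The related lists came from textbook knowledge and hold genes that lymphocytes or stroma also express. Alternatives were other scalings, pseudocounts, filters, sample sets and the authors' log2 table, and each library was left out in turn.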

Additional observations from a re-analysis of the deposited data

Results flagged for a closer look

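The crisis effect, as a log2 change against young WT, differed between whole spleen and whole marrow by a test of the difference itself for Mcpt1 (-6.58), Cma1 (-6.25), Cpa3 (-2.40) and Ms4a2 (-1.63), each lower in spleen. For Ms4a2 the call was lost in 14 of 17 alternatives.

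The whole spleen library labelled scat, of a 58-day mouse whose other 4 libraries are labelled WT and served as older WT, held 7 members above every WT whole spleen library. It had 14278 normalised counts of Prg2, 3356 of Epx and 539 of Prg3, against at most 7110, 2219 and 275.8 in the 4 WT spleens. It also had 1456 of Hdc, 247.9 of Mcpt8, 54.16 of Ms4a2 and 46.55 of Fcer1a, against at most 679.9, 223.6, 34.69 and 17.33 in the WT spleens. Its Cma1 (93.29), Mcpt1 (35.37) and Cpa3 (270) lay between the crisis spleens and the WT spleens. Its B cell sum (34380) and T and NK cell sum (11002) lay under those of the WT spleens and nearer the 2 younger remission spleens, while the 58-day remission spleen, at 154708 and 45339, lay above the WT spleens. Whether samples of these 2 mice were exchanged was not tested.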

How the results depend on the processing

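Over 135 tests of a member in a comparison, 1659 values were computed under alternatives: the deposited values without rescaling, a pseudocount of 10, no filter on low values, the authors' regularised log2 values, other sets of samples in the fit, no replicate block, and each library left out. No call turned into a call of the other sign, 40 calls were lost (28 on leaving out a library) and 26 were gained (16 likewise). In 72 values the sign differed with no call in either. In crisis against young WT, whole marrow had 0 members called and 1 without rescaling, with all 4 groups in 1 fit or with all WT libraries as control, and 0 to 2 on leaving out a library. Leaving out a library gave 0 to 2 members in marrow MEP, 0 to 3 in marrow SMP, 0 to 2 in spleen SMP and 4 to 4 in whole spleen, and spleen MEP gave 1 without rescaling. Remission against crisis in whole marrow gave 0 to 2. The crisis effect differed between spleen and marrow for 4 members in whole tissue, for 3 with no replicate block and for 1 without rescaling, and for 0 to 2 in SMP on leaving out a library. Between spleen and marrow of young WT mice, MEP gave 2 without rescaling and 0 to 2 on leaving out a library, and SMP gave 0 to 4. Where a cause is not plain from the alternative itself, the cause was not tested. The counts of all genes called in crisis against young WT moved with single libraries too, from 0 to 5729 in spleen SMP and from 94 to 3027 in whole marrow. They ran from 5 to 2957 in marrow SMP and from 6 to 1693 in marrow MEP. The spread between 3 mice, and averages under 10 for Cma1 and Mcpt1 in MEP and SMP, limit what could be seen.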
